A study of Mus musculus with 12 samples.

Results

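Slc1a6, Slc1a3, Slc1a2 and Slc1a1, the 4 glutamate transporters of cerebellar neurons and glia, were followed in the cerebellum of mice with a knockin allele for spinocerebellar ataxia type 6 (SCA6). They were chosen by symbol, as 4 of the 12672 genes measured on the arrays. The array annotation gave 15 probe sets to one of these symbols alone: 1 for Slc1a6, 6 for Slc1a3, 5 for Slc1a2 and 3 for Slc1a1. Of these, 12 lay above a filter that took out the dimmest 40% of probe sets by mean level, and the other 3 (1 of Slc1a3 and 2 of Slc1a2) were read as levels only.

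Total RNA of whole cerebellum was hybridised in 12 samples from mice aged 6 weeks on a C57BL/6 background, in 4 groups of 3 arrays. The groups were MPI 118Q/118Q knockin mice, their wild type littermates, MPI 11Q/11Q knockin mice, and the wild type littermates of that line. In SCA6 models the knocked-in sequence belongs to Cacna1a, which encodes the P/Q-type calcium channel's pore-forming subunit, and the number before Q is the length of its glutamine tract. The 11Q knockin therefore carries the introduced sequence with a short tract. Each line is known here through 3 knockin and 3 littermate arrays, so repeat length and line cannot be told apart when the knockins are set against each other.

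Glutamate released from parallel and climbing fibres is cleared from Purkinje cell synapses by sodium-coupled transporters of the SLC1 family. Slc1a6 encodes EAAT4, which sits on the spines and dendrites of Purkinje cells and is more abundant in the zebrin-positive bands of the cerebellar cortex. Slc1a3 encodes GLAST, the main transporter of Bergmann glia, Slc1a2 encodes GLT-1 of astrocytes, and Slc1a1 encodes EAAC1, a neuronal transporter. In bulk tissue, fewer cells of a type and less RNA per cell cannot be told apart.

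The 5′ flanks of the Purkinje cell transporter and of the Bergmann glial transporter are shown because they belong to the transporters of the cell types that meet at the parallel fibre synapse, and because they differ in base composition. Sequences are from RefSeq (GRCm38.p6), 5′ to 3′ on the gene's strand, 250 bases before and 50 bases after the listed start. Capitals mark the GC box GGGCGG and the E-box CACGTG on either strand; the ROR element AGGTCA was also searched. The first window is chr10:78780246-78780545 (plus strand) and the second chr15:8710758-8711057 (minus strand).
Slc1a6: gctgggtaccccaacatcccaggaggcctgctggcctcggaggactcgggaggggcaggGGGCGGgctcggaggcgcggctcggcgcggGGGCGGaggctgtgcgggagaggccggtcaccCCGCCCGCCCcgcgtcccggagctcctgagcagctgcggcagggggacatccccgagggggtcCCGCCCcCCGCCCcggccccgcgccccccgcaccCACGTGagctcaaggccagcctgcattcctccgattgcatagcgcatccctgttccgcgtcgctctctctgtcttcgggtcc
Slc1a3: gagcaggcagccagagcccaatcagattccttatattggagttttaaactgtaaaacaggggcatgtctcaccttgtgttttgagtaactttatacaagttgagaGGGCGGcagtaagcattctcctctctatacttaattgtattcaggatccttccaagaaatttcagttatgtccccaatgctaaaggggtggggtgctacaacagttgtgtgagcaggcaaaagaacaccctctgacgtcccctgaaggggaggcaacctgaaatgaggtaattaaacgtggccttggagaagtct
The Slc1a6 window held 6 GC boxes, 1 E-box and 32 CpG dinucleotides, with a GC content of 75.7%. The GC boxes that start at bases 122 and 126 of the window overlap. The Slc1a3 window held 1 GC box and 3 CpG dinucleotides, with a GC content of 45.3%. Both windows lacked AGGTCA, which was found once in the Slc1a2 window (GC content 45.7%), and the Slc1a1 window (70.3%) held 1 GC box and 32 CpG dinucleotides. The Slc1a2 window, chr2:102706188-102706487 (plus strand), lies inside the gene, whose locus starts at 102658239. Its AGGTCA lies after the listed start. The Slc1a6 window also begins after the start of its locus, at 78780086. Among 32851 promoter windows of this length, 35.7% held GGGCGG, 7.15% CACGTG and 16.3% AGGTCA, and the median GC content was 52.7%. These matches describe the letters of the windows and say nothing of which factors bind.

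The deposited values are log2 expression made with RMA, and arrays correlated at r = 0.980 to 0.995 with each other. The probe sets for 18S ribosomal RNA averaged 8.81 ± 0.37 (SD, n = 3) on the 118Q knockin arrays, 9.92 ± 0.35 on those of their littermates, 10.24 ± 0.13 in 11Q knockins and 10.44 ± 0.17 in 11Q wild types. The rank correlation across genes between a gene's deviation and its genomic span ran from -0.333 to -0.246 on the 118Q knockin arrays and from -0.0439 to 0.160 on their littermates'. Wild type replicate 3 of both lines stood apart together, being below all 10 other arrays in 2580 of 27060 probe sets (9.53%) and above them in 2989 (11%). Cacna1a differed by -0.34 between 118Q knockins and littermates and by -0.07 between 11Q knockins and littermates (limma adjusted p = 0.264 and 0.954). Among markers of the cell types that carry the transporters, Calb1 of Purkinje cells read 10.02 and 10.78, Gdf10 of Bergmann glia 8.44 and 8.41 and Aqp4 of astrocytes 8.87 and 8.87 in 118Q knockins and their littermates. None of these was called (limma adjusted p = 0.0853, 0.941 and 0.988). They were picked with values in view, and other markers of the same cells, given below, read otherwise.

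Slc1a6 fell in the 118Q knockin cerebellum and was the one transporter called there. Its log2 level was 7.73, 6.69 and 6.95 on the 118Q knockin arrays and 8.29, 8.25 and 8.21 on those of their littermates. All 3 knockin arrays lay below all 3 littermate arrays, although replicate 1 lay much nearer to them than replicates 2 and 3. As a share of the littermate mean on the linear scale, the knockin replicates had 69.9%, 33.8% and 40.6%.

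The group means of Slc1a6 were 7.12 ± 0.54 in 118Q knockins and 8.25 ± 0.04 in their littermates (SD, n = 3 each). The difference was -1.13 ± 0.20 (SE; 95% confidence interval -1.56 to -0.70), a 2.19-fold lower level, with a limma adjusted p of 0.0465 over all genes. Slc1a6 ranked 21st by p among the 24 genes called (0.189% of 12672; 0.11% called lower), and 7.24% of genes lay lower with no overlap between the groups. Fitted among all 27060 probe sets above the filter, of which 2.25% were called, its adjusted p was 0.0147. The spread of Slc1a6 among the 118Q knockins was 9.35 times the mean SD of the other groups, where 9 arrays lay between 8.15 and 8.29. The SE, interval and adjusted p above rest on a variance pooled over all groups, so they understate the spread of the 118Q knockins. Fitted with only the groups compared, the SE was 0.235 and the call was lost (limma adjusted p = 0.192).

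The call lies close to the threshold and was kept in 1 of the 12 fits that each left out an array, the one without 118Q knockin replicate 1 (-1.43, limma adjusted p = 0.000293); the other 11 gave -1.15 to -0.909 with adjusted p from 0.0518 to 0.212. The 18S signal moved with the groups, and with it as a covariate the difference was -0.55 (adjusted p = 0.786). Centring each array on its median gave -1.10 with adjusted p = 0.0569.

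In the 11Q line Slc1a6 was not called. Its level was 8.27, 8.17 and 8.15 in 11Q knockins and 8.27, 8.16 and 8.15 in their littermates, so the groups overlapped almost fully. The difference was 0.00 ± 0.20 (SE; interval -0.42 to 0.43; limma adjusted p = 0.997). This SE also rests on the pooled variance and overstates the spread in the 11Q line. Fitted with only the groups compared, it was 0.0953. No gene was called in this line by limma (0% of 12672), while 536 (4.23%) had an unadjusted p below 0.05. The 118Q effect on Slc1a6 minus the 11Q effect was -1.13 ± 0.28 (interval -1.74 to -0.53), with an unadjusted limma p of 0.00146 and an adjusted p of 0.346. It ranked 47th by p in that comparison, in which limma called 0 genes (0%) and 1392 (11%) had an unadjusted p below 0.05.

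**Figure D1:**
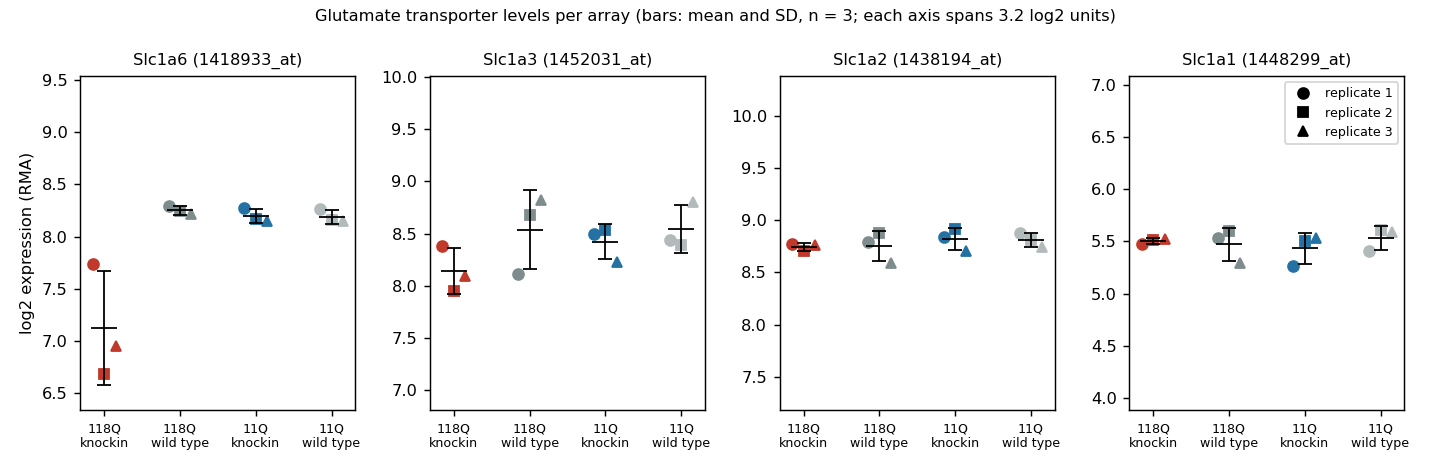
Log2 expression (RMA) of the 4 transporters on each of the 12 arrays by group; bars give the mean and SD of 3 arrays, and every axis spans 3.2 log2 units. The 118Q knockin arrays of Slc1a6 sit at 7.73, 6.69 and 6.95, below the other 9 arrays at 8.15 to 8.29, while the groups of Slc1a3, Slc1a2 and Slc1a1 overlap.

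Set directly against the 11Q knockins, the 118Q knockins were also lower in Slc1a6. The difference was -1.07 ± 0.20 (SE; interval -1.50 to -0.64; limma adjusted p = 0.00886), with no overlap between the groups. Fitted with only the groups compared, the SE was 0.241 and the limma adjusted p 0.0341. In this comparison 13.7% of all genes were called, with 3.6% of all genes called lower, and 11.6% lay lower with no overlap, and the gene ranked 183rd by p. With the 18S signal or the Purkinje marker median as a covariate the difference was -0.33 or -0.19 and the call was lost (adjusted p = 0.772 and 0.843). This comparison shares the 118Q knockin arrays with the comparison against littermates. The wild types of the lines differed in Slc1a6 by 0.06 ± 0.20 (adjusted p = 1.00), where limma called 0% of genes and 378 (2.98%) had an unadjusted p below 0.05.

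Slc1a3, the Bergmann glial transporter, was lower on average in 118Q knockins on its brightest probe set without passing the test. Probe set 1452031_at read 8.38, 7.95 and 8.10 in 118Q knockins and 8.11, 8.68 and 8.82 in littermates. The groups overlapped, since littermate replicate 1 lay below knockin replicate 1. The difference was -0.39 ± 0.19 (SE; interval -0.80 to 0.01; limma adjusted p = 0.281). With the 18S signal as a covariate its sign turned (0.12, adjusted p = 0.953), and omitting 1 array at a time gave -0.61 (without 118Q wild type replicate 1) to -0.25 (without 118Q wild type replicate 3). In the 11Q line the probe set read 8.50, 8.54 and 8.23 in knockins and 8.44, 8.39 and 8.81 in littermates, a difference of -0.12 ± 0.19 (adjusted p = 0.947). The 2 effects differed by -0.27 ± 0.26 (adjusted p = 0.740).

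The other Slc1a3 probe sets did not move as one. In the fit of single probe sets, 1443749_x_at differed by -0.54 ± 0.16 between 118Q knockins and littermates (limma adjusted p = 0.107). Its levels were 7.74, 7.21 and 7.30 in 118Q knockins against 7.64, 8.03 and 8.20 in littermates, overlapping through the first littermate array. Probe set 1426340_at differed by -0.35 ± 0.15 (adjusted p = 0.257), whereas 1426341_at and 1439072_at gave 0.05 ± 0.31 and -0.06 ± 0.14 (adjusted p = 0.954 and 0.858). Thus 0 of 5 Slc1a3 probe sets above the filter were called, beside 2.25% of all probe sets.

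Probe set 1426341_at varied most among wild types. It read 7.59, 7.53 and 7.51 in 118Q knockins, 7.84, 7.86 and 6.77 in their littermates, 7.88, 7.96 and 8.13 in 11Q knockins, and 7.90, 7.92 and 6.76 in theirs. Wild type replicate 3 of each line thus lay far below every other array, of which the lowest read 7.51. On 1452031_at, a probe set of the same gene, the same 2 arrays were the highest of the 12, at 8.82 in the 118Q line and 8.81 in the 11Q line. The cause of these opposite readings was not tested.

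**Figure D2:**
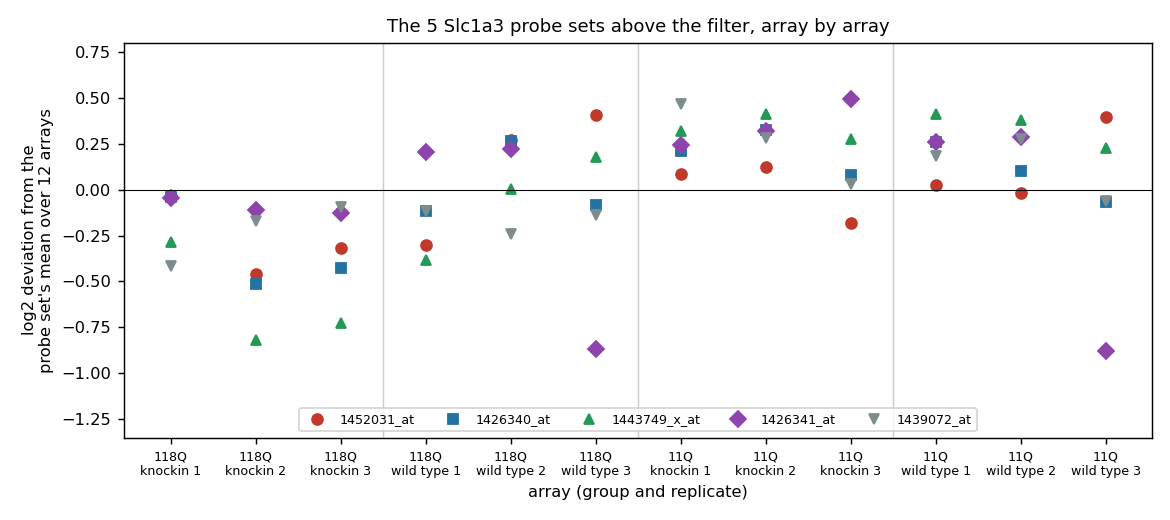
Deviation of the 5 Slc1a3 probe sets above the filter from their own mean over the 12 arrays, in log2 units, by array. In wild type replicate 3 of both lines 1426341_at (diamonds; levels 6.77 and 6.76) is the lowest point and 1452031_at (circles; levels 8.82 and 8.81) the highest.

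Between the knockins, Slc1a3 was lower in the 118Q line on several probe sets. The brightest, 1452031_at, differed by -0.28 ± 0.19 (limma adjusted p = 0.336 in the gene fit). In the fit of single probe sets 3 of 5, all of the same gene, were called lower, beside 13.6% of all probe sets called in either direction: 1443749_x_at by -0.95 ± 0.16 (adjusted p = 0.00390), 1426340_at by -0.53 ± 0.15 (adjusted p = 0.0392) and 1439072_at by -0.49 ± 0.14 (adjusted p = 0.0389). All 3, and 1426341_at at -0.45 ± 0.31 (adjusted p = 0.366), lay lower with no overlap, as did 15.2% of all probe sets. Differences of the same sign were measured without a knockin allele: 118Q wild types differed from 11Q wild types by -0.40 ± 0.16 on 1443749_x_at and by -0.30 ± 0.14 on 1439072_at (adjusted p = 1.00 each), both with no overlap, against 3.59% of probe sets lower in that way.

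Slc1a2, the astrocytic transporter, did not pass the test on its bright probe set in either line. Probe set 1438194_at read 8.77, 8.70 and 8.77 in 118Q knockins and 8.79, 8.87 and 8.59 in their littermates, with the knockin arrays inside the littermate range. The difference was -0.01 ± 0.10 (SE; limma adjusted p = 0.979), and its interval of -0.23 to 0.22 bounds what these arrays could show. In the 11Q line it read 8.84, 8.91 and 8.71 in knockins and 8.88, 8.81 and 8.75 in littermates, a difference of 0.01 ± 0.10 (adjusted p = 0.990). The effects in the lines differed by -0.02 ± 0.15 (adjusted p = 0.983), and the knockins by -0.08 ± 0.10 (adjusted p = 0.658).

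The 2 dimmer Slc1a2 probe sets pointed the other way without being called. Probe set 1451627_a_at read 3.05, 3.40 and 2.99 in 118Q knockins and 2.71, 3.05 and 2.47 in littermates, with overlap at 1 array. The difference was 0.40 ± 0.18 (limma adjusted p = 0.270), and 1439940_at gave 0.23 ± 0.27 (adjusted p = 0.706). A further probe set, 1433095_at, is annotated to both Gm13872 and Slc1a2 and was not counted, and 1433094_at and 1459014_at lay below the filter.

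Slc1a1, the neuronal transporter EAAC1, was likewise not called. Probe set 1448299_at read 5.48, 5.52 and 5.53 in 118Q knockins and 5.53, 5.60 and 5.30 in littermates, and 5.27, 5.50 and 5.54 in 11Q knockins and 5.40, 5.61 and 5.59 in theirs. All groups overlapped. The 118Q difference was 0.03 ± 0.11 (SE; interval -0.21 to 0.28; limma adjusted p = 0.908) and the 11Q difference -0.10 ± 0.11 (adjusted p = 0.939). The dimmer 1425415_a_at and 1460386_a_at gave -0.24 ± 0.17 and -0.27 ± 0.13 in the 118Q line (adjusted p = 0.474 and 0.302). Between the knockins the gene differed by 0.07 ± 0.11 (adjusted p = 0.704).

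**Figure D3:**
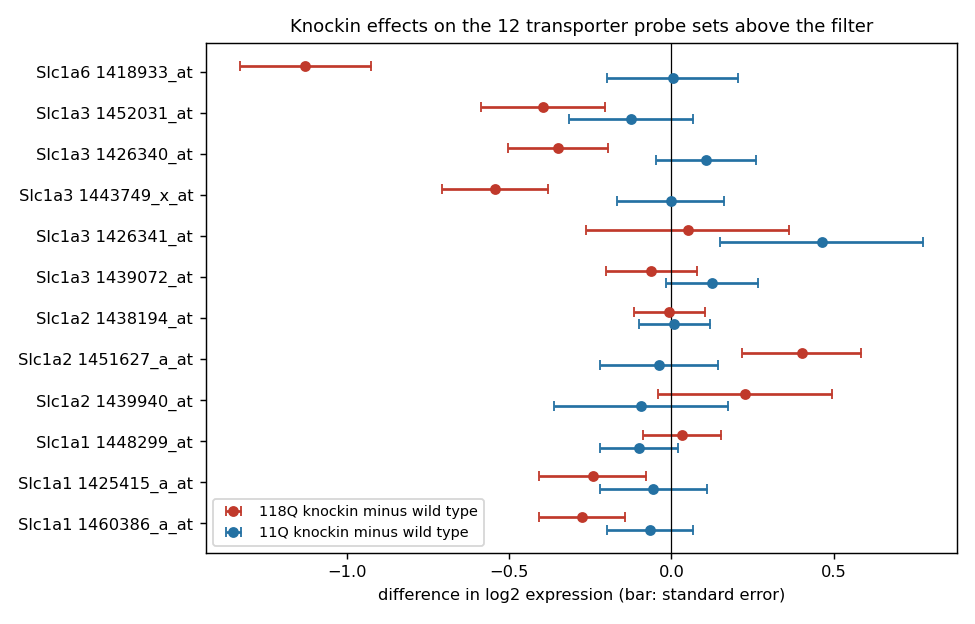
Knockin minus wild type difference in log2 expression (points; bars are the standard error from limma) for the 12 transporter probe sets above the filter, in the 118Q line (red) and the 11Q line (blue). Slc1a6 in the 118Q line, at -1.13, lies apart from the other 11 probe sets, which run from -0.54 to 0.40 in that line.

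Whether Slc1a6 fell by more than the other transporters was asked within arrays. Slc1a6 minus Slc1a3 was -0.65, -1.27 and -1.14 in 118Q knockins and 0.19, -0.44 and -0.61 in littermates, with no overlap and a shift of -0.73. The shift was -1.12 for Slc1a6 minus Slc1a2 and -1.16 for Slc1a6 minus Slc1a1, again with no overlap. Each of the 3 exact two-sided permutation tests gave p = 0.1, which is the smallest that 3 against 3 arrays allow. In the 11Q line the same shifts were 0.13, -0.00 and 0.10 (exact permutation p = 0.6, 1 and 0.5), and the groups overlapped. Over the 12 arrays, Slc1a6 and Slc1a3 had r = 0.65 but a rank correlation of 0.39, and the other pairs ran from -0.22 to 0.30 in r; these describe 12 arrays that share their groups.

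The genes whose pattern over the 12 arrays was most like Slc1a6 were Ywhah, a 14-3-3 protein (r = 0.991, rank correlation 0.811), Plxdc1, a membrane protein first described in tumour endothelium (0.985, 0.580), Dner, a Notch ligand of Purkinje cells (0.983, 0.734), Eps8l2, an actin regulator (0.977, 0.727), and App, the amyloid precursor protein (0.973, 0.643). Their 118Q differences were -0.59 ± 0.14, -1.08 ± 0.21, -1.04 ± 0.23, -0.74 ± 0.15 and -0.43 ± 0.12, with limma adjusted p from 0.0572 to 0.0920, so none was called. The arrays fall into 2 clusters, and over the 9 arrays outside the 118Q knockin r was 0.499, 0.0116, -0.121, 0.281 and 0.0775 for the same genes. The likeness rests on the 118Q knockin arrays.

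For the other transporters the leaders were different genes. Slc1a3 was most like Smap1, Fam91a1 and Trnt1 (r = 0.990, 0.972 and 0.965), and over the 9 arrays outside the 118Q knockin these stayed at 0.988, 0.978 and 0.944. Those 9 arrays still hold wild type replicate 3 of both lines. In each of these genes, as in Slc1a3, that pair of arrays read higher than every other array. The correlation without the pair was not computed. Slc1a2 was most like Smap2, Sdhc and Elavl1 (0.887, 0.878 and 0.868), and Slc1a1 most like Nectin2, Gsn and Zdhhc22 (0.863, 0.856 and 0.853). These are descriptions over arrays that share groups and processing.

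**Figure D4:**
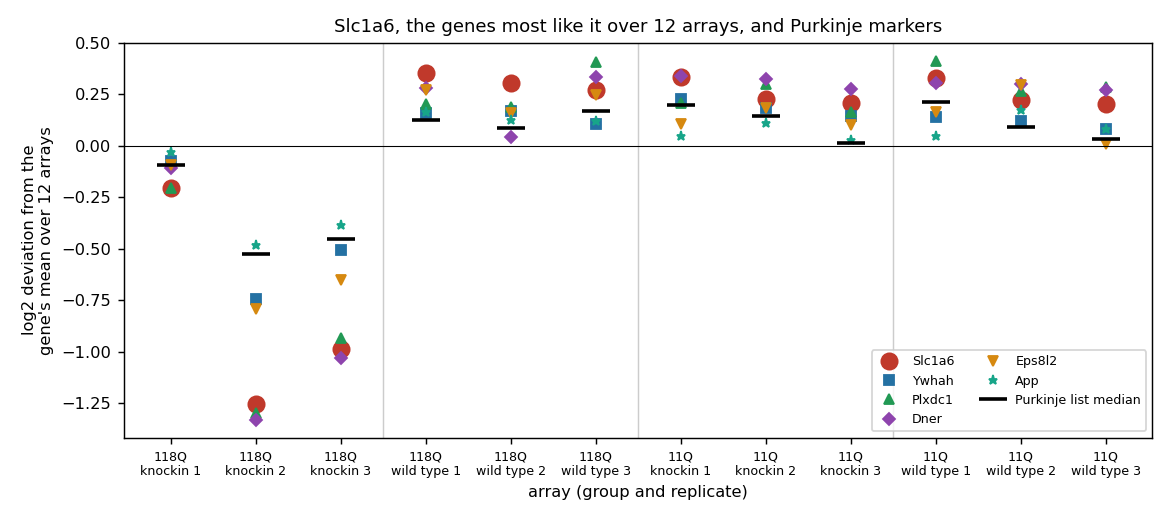
Deviation from the gene's own mean over the 12 arrays, in log2 units, for Slc1a6 (large circles), the 5 genes most like it and the median of 19 Purkinje cell markers (bars), by array. In 118Q knockin replicates 2 and 3 all lie far below 0, in replicate 1 just below 0, and on the other 9 arrays above it.

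Most markers of Purkinje cells had 118Q differences of the same sign as Slc1a6, and none was called in that comparison. Of 24 such markers 19 were measured under their own symbol, Slc1a6 not among them, and 18 of the 19 lay below 0 in the 118Q difference, against 40% of all genes. At an unadjusted p below 0.05, 12 were lower and 0 higher, beside 6.7% and 12% of all genes, but 0 were called. Their median difference was -0.52, against 0.06 over all genes. The median deviation of the markers was -0.09, -0.52 and -0.46 in 118Q knockins and 0.13, 0.09 and 0.17 in littermates. The order of the knockin replicates was that of Slc1a6. Endothelial markers (-0.06, -0.53 and -0.45) and the rank correlation with genomic span (-0.246, -0.333 and -0.303) had the same order. It was therefore not particular to Purkinje markers. Some lists had another order, such as molecular layer interneuron markers (-0.08, -0.41 and -0.45). Examples among the Purkinje markers were Dner at -1.04 ± 0.23, Car8, which modulates the inositol trisphosphate receptor, at -0.65 ± 0.15, Itpka, an inositol trisphosphate kinase, at -0.50 ± 0.11, and Prkg1, the cGMP-dependent kinase, at -0.71 ± 0.17 (limma adjusted p = 0.0660, 0.0689, 0.0689 and 0.0742). Pcp2, a Purkinje cell gene, stood at 0.14 ± 0.11 (adjusted p = 0.527).

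Slc1a6 had the lowest 118Q difference when set beside these 19 markers, of which Dner was the nearest. With the markers' median as a covariate, the Slc1a6 difference was -0.22 (limma adjusted p = 0.821). Without 118Q knockin replicate 1, 10 of the 19 markers were called and their median was -0.66. That fit called 707 of all 12672 genes, 328 of them lower. Without replicate 2 or 3, where 5 and 4 of all genes were called, no marker was, with medians of -0.43 and -0.48. With the 18S signal as a covariate, 1 was lower at an unadjusted p below 0.05 and the median was -0.17. When the knockins were set against each other, 9 of the 19 were called lower and 0 higher, beside 3.6% of all genes called lower. There Dner, at -1.14 ± 0.23 (limma adjusted p = 0.0109), lay below Slc1a6 at -1.07 ± 0.20. How far these markers account for the fall of Slc1a6 was not tested beyond these values.

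Genes tied to the zebrin bands, where EAAT4 is abundant, held no gene called in the 118Q line. Of 12 listed, 10 were measured, with 0 called (0.189% of all genes were) and a median of -0.15 in the 118Q line. At an unadjusted p below 0.05, 3 were lower and 1 higher, beside 6.7% and 12% of all genes. Plcb3, a phospholipase C of zebrin-positive Purkinje cells, differed by -0.52 ± 0.11, and Plcb4, the form of the zebrin-negative cells, by -0.43 ± 0.13 (limma adjusted p = 0.0599 and 0.117). Ebf2 gave -0.77 ± 0.31 and Phgdh, a serine synthesis enzyme of glia and other cells, 0.27 ± 0.12 (adjusted p = 0.214 and 0.235). Plcb3 was also lower in 11Q knockins than in their littermates, by -0.28 ± 0.11 (limma adjusted p = 0.939). Its mean level was 4.43 in 118Q knockins and 4.42 in 11Q knockins, so its lower level was not particular to the 118Q line. Phgdh was called higher in 118Q than in 11Q knockins, by 0.69 ± 0.12 (limma adjusted p = 0.00735). It was the 1 gene of the 10 called there, beside 13.7% of all genes.

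Markers of the glia that carry Slc1a3 and Slc1a2 lay near the values of all genes. All 20 Bergmann glial and astrocytic markers were measured, of which 15 lay above 0 in the 118Q line, with a median of 0.13, against 0.06 over all genes, and 0 called. At an unadjusted p below 0.05, 3 were higher and 1 lower, beside 12% and 6.7% of all genes: Ntsr2, a neurotensin receptor, at 0.49 ± 0.17, Gfap at 0.57 ± 0.23, Ndrg2 at 0.35 ± 0.15 and Slc4a4, a bicarbonate cotransporter, at -0.35 ± 0.15 (limma adjusted p = 0.160, 0.220, 0.239 and 0.231). The markers' median deviation was 0.11, 0.19 and 0.15 in 118Q knockins and -0.07, 0.11 and -0.02 in littermates. With the 18S signal as a covariate, 0 passed in either direction and the median was 0.05.

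Among markers of other cell types 1 microglial and 1 endothelial gene were called in the 118Q line, and the part of these cells in the transporter values was not tested. Microglial markers were higher in 7 of 10 at an unadjusted p below 0.05 (12% of all genes were), with a median of 0.65, and Trem2 was called at 0.77 ± 0.13 (limma adjusted p = 0.0465), with Tyrobp at 1.03 ± 0.19 (adjusted p = 0.0549), Cd68 at 1.08 ± 0.28 (0.0853) and C1qb at 0.73 ± 0.22 (0.115). Endothelial markers were lower in 5 of 8 (6.7% of all genes were), with a median of -0.41, and Flt1, a VEGF receptor, was called at -0.95 ± 0.16 (adjusted p = 0.0465), beside Abcb1a at -0.96 ± 0.22 (0.0689). With the 18S signal as a covariate, 2 of 10 microglial markers were higher (median 0.64) and 0 of 8 endothelial markers lower (median -0.01) at an unadjusted p below 0.05. No gene of either list was called then, with the span trend removed, or without wild type replicate 3 of both lines, 118Q knockin replicate 2 or 3, or 118Q wild type replicate 1 or 3. Genes listed for molecular layer interneurons were lower in 3 of 9 (median -0.30, with Gad1 at -0.79 ± 0.24, adjusted p = 0.124, and Kit at -0.58 ± 0.21, adjusted p = 0.175). Whether the genes of that list, Gad1 among them, are particular to interneurons rather than shared with Purkinje cells was not tested. Granule cell markers had a median of 0.01 (1 of 11 higher, Gabrd at 0.29 ± 0.12, and 1 lower, Zic1 at -0.25 ± 0.11) and oligodendrocyte markers 0.13 (1 of 9 higher, Mobp at 0.66 ± 0.19). Choroid plexus markers varied from array to array, with median deviations between -2.48 and 1.73, and 0 of 7 passed an unadjusted p of 0.05.

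Proteins that bind the transporters or supply their ion gradients were not called in the 118Q line. Of 15 listed, 7 were measured under their own symbol, with a median 118Q difference of -0.00. Of these, 0 were called (0.189% of all genes were) and 1 was lower at an unadjusted p below 0.05 (6.7% of all genes were). That gene was Atp1b1, a subunit of the sodium pump, at -0.35 ± 0.16 (limma adjusted p = 0.265), while its paralogue Atp1b2 gave 0.07 ± 0.15 (adjusted p = 0.834). Arhgef11, a RhoGEF that binds EAAT4, gave 0.05 ± 0.20 (adjusted p = 0.921). Kcnj10, the glial potassium channel, and Aqp4, the water channel, gave -0.00 ± 0.13 and 0.01 ± 0.18. Arl6ip5, a regulator of EAAC1, was not analysed here.

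The glutamate-glutamine cycle, which returns the cleared transmitter to neurons, held no gene called in the 118Q line. Of 20 listed genes 17 were measured, with a median 118Q difference of 0.00 and 0 called (0.189% of all genes were). At an unadjusted p below 0.05, 1 was higher and 1 lower, beside 12% and 6.7% of all genes. Glul, the glial glutamine synthetase, gave 0.02 ± 0.16 (limma adjusted p = 0.957). Slc25a18, the astrocytic mitochondrial glutamate carrier, gave 0.43 ± 0.10 (adjusted p = 0.0702), and Slc38a1, a neuronal glutamine transporter, -0.41 ± 0.14 (adjusted p = 0.151). Slc25a22, the second mitochondrial carrier, gave 0.32 ± 0.19, and Got1, a cytosolic aspartate aminotransferase, -0.25 ± 0.15 (adjusted p = 0.393 and 0.402). When the knockins were set against each other, 1 of the 17 was called, beside 13.7% of all genes. That gene was Slc25a18, higher in 118Q knockins by 0.52 ± 0.10 (limma adjusted p = 0.0101).

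Glutamate receptors and their synaptic partners had a median 118Q difference of -0.03 over 19 of 25 listed genes. Of these, 0 were called (0.189% of all genes were) and 5 were lower at an unadjusted p below 0.05 (6.7% of all genes were). The 4 with the smallest p were Grid1 at -0.47 ± 0.13, the kainate receptor subunit Grik1 at -1.03 ± 0.33, the scaffold Homer3, enriched in Purkinje cells, at -0.52 ± 0.18, and the AMPA receptor subunit Gria3 at -0.73 ± 0.28 (limma adjusted p = 0.105, 0.143, 0.157 and 0.191). No gene of the partner, cycle or receptor lists was called in the 11Q line, where 0% of all genes were.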

How the data were processed

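RNA of 12 cerebella was measured on 1-colour expression arrays, 3 arrays in each of 4 groups given by the labels. What was deposited is 1 log2 expression value for each probe set and array, from RMA per the submitters' processing notes, whose settings the sources used here do not give. Array medians lay between 2.21 and 2.38, and no further normalization was applied. Probe sets were named from the array annotation (34958 of 45101 with 1 symbol, 932 with several, 9211 with none listed), with symbols updated through Entrez identifiers. The 40% with the lowest mean (under 1.58) were removed, leaving 27060, and a gene took its probe set with the highest mean. A group-means model over 12 arrays was fitted with limma 3.58.1 in R 4.3.3 (8 residual degrees of freedom), two-sided, with Benjamini-Hochberg adjustment over all genes or probe sets, and a gene was called at an adjusted p below 0.05. The steps were tested on simulated data. The number of arrays limits the precision. The members and gene lists were chosen with earlier results of these data known. Named genes were the 4 members, the 5 or 3 genes most like each by Pearson r (clones and predicted genes passed over), up to 4 genes with the smallest 118Q p and any called gene of each list, and partners named by function (Arhgef11, Arl6ip5 and Glul; others are not reported here). Further genes named beside them (Pcp2, Calb1, Gdf10, Atp1b2, Kcnj10, Aqp4, Slc25a22, Got1) were chosen with values in view. Alternatives were other filters, summaries, normalizations, variance models, covariates and omitted arrays.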

Additional observations from a re-analysis of the deposited data

How the results depend on the processing

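Precision was limited by 3 arrays in each group, and dim probe sets by their closeness to the filter; the 118Q call of Slc1a6 lies near the threshold. Its difference kept its sign under all 27 alternatives to the 118Q fit and its call under 9 of them. The call was lost with arrays centred on their median (-1.10, limma adjusted p = 0.0569), with only the groups compared (-1.13, 0.192), with the replicate block (-1.13, 0.0879), with the gene span trend removed (-1.10, 0.0827), with the 18S covariate (-0.55, 0.786), with the Purkinje list median as covariate (-0.22, 0.821) and without wild type replicate 3 of both lines (-1.15, 0.127). The 18S and Purkinje values differ between the groups, so such a covariate can take part of any knockin effect with it. The cause of each lost call was not tested. The fit of only the groups compared has fewer arrays and leaves out the other line, where Slc1a6 varied less than in 118Q knockins. Its SE for Slc1a6 was 0.235, against 0.198 with the variance pooled over all groups. Omitting 1 array at a time gave -1.43 to -0.909 (adjusted p 0.000293 to 0.212). The difference of effects on Slc1a6 passed the threshold with array weights (-1.24, 0.0448) and without 118Q knockin replicate 1 (range over omissions -1.44 to -0.913). Between the knockins Slc1a6 was no longer called with the 18S covariate (-0.329, 0.772) or the Purkinje covariate (-0.185, 0.843), and Slc1a3 passed as the mean of its probe sets (-0.538, 0.0138).

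The replicate numbers did not pair knockins with littermates (same-number correlations of -0.0792, -0.112 and -0.0293 in the 118Q line and 0.193, -0.171 and 0.0127 in the 11Q line). The replicate block gave 5 calls in the 118Q line, against 24 without it, and could not be fitted between knockins or between wild types.

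Uncalled values changed sign as follows, with no transporter called in any of them. With the 18S covariate, Slc1a3 gave 0.117 in the 118Q line, 0.15 in the difference of effects, 0.379 between knockins and 0.229 between wild types, Slc1a1 gave -0.0674 in the 118Q line and -0.056 between knockins, and Slc1a2 gave -0.0301 in the 11Q line. With the Purkinje covariate, Slc1a2 gave 0.087, 0.0795 and 0.0168 and Slc1a1 -0.184, -0.0864 and -0.14 in the 118Q line, the difference of effects and between knockins, Slc1a3 gave 0.0914 in the difference of effects and 0.0718 between knockins, and Slc1a6 gave -0.00705 in the 11Q line. With a gene's probe sets averaged, Slc1a2 gave 0.207 in the 118Q line, -0.0412 in the 11Q line, 0.248 in the difference of effects and 0.236 between knockins, Slc1a1 gave -0.162, -0.0883 and -0.129 in the 118Q line, the difference and between knockins, and Slc1a3 gave 0.114 in the 11Q line. With array weights, Slc1a1 gave -0.0129 in the 118Q line and 0.0283 between wild types, Slc1a6 and Slc1a2 gave -0.0336 and -0.00401 in the 11Q line, and Slc1a3 gave 0.0969 between wild types. With the span trend removed, Slc1a2 gave 0.104 in the 118Q line, 0.0794 in the difference and 0.0582 between knockins, and Slc1a3 0.0175 between wild types. In the 118Q line Slc1a2 gave 0.0185 with centred arrays, and with quantile normalization Slc1a2 gave 0.00121 and Slc1a1 -0.000644. Without wild type replicate 3 of both lines, Slc1a1 gave -0.0564 in the 118Q line and 0.0566 between wild types, and Slc1a6, Slc1a3 and Slc1a2 gave -0.0187, 0.00662 and -0.024 in the 11Q line.

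Omitting 1 array at a time, Slc1a1 ran from -0.0564 to 0.0935 in the 118Q line, from -0.0122 to 0.123 between knockins and from -0.125 to 0.0284 between wild types. Slc1a2 ran from -0.0864 to 0.0535 in the 118Q line, from -0.0377 to 0.0654 in the 11Q line, from -0.0951 to 0.0448 in the difference of effects and from -0.12 to 0.02 between wild types. Slc1a3 ran from -0.609 to -0.253 in the 118Q line, from -0.485 to -0.129 in the difference of effects, from -0.2 to 0.00662 in the 11Q line and from -0.15 to 0.206 between wild types, and Slc1a6 from -0.0336 to 0.0428 in the 11Q line.

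Counts of called genes moved more. The 24 of the 118Q line became 150 with the lowest 60% removed, 608 probe sets tested 1 by 1, 10 with centred arrays (3 higher, 7 lower), 43 with quantile normalization (13 higher, 30 lower), 200 with an intensity trend, 1529 with array weights, 391 at an adjusted p below 0.1, 6 with the span trend removed, 3 without wild type replicate 3 of both lines, and 0 with only the groups compared, the 18S covariate or the Purkinje covariate; omitting 1 array gave 4 to 707, the highest without 118Q knockin replicate 1. Between knockins 1732 became 4738 with array weights, 3684 probe sets, 2892 at an adjusted p below 0.1 and 0 with either covariate (319 to 2274 on omission). The difference of effects had 12 with array weights and 26 probe sets (0 to 12), the 11Q line 1 with only the groups compared (0 to 1), and the wild types 1 with the 18S covariate and 1 without wild type replicate 3 (0 to 1).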

Other observations

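The Slc1a3 probe set below the filter, 1440491_at, read 0.59, 0.81 and 0.88 in 118Q knockins, 1.10, 0.91 and 1.02 in their littermates, 1.64, 1.73 and 1.22 in 11Q knockins, and 1.62, 1.46 and 1.22 in theirs. All 6 arrays of the 118Q line lay below all 6 of the 11Q line, as in 0.647% of the 45101 probe sets of the array and 0.194% of the 18041 below the filter. Levels this low were read without a test, and the pattern was noticed after its values were seen.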
